A study of Homo sapiens with 24 samples.

Results

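Collagen chain genes encode the alpha chains from which the collagen trimers of the extracellular matrix are built. They were taken as every gene symbol of the form COL, a number, A and a number, which gave 28 genes with a row among the 24053 gene identifiers of the expression table. Of these, 15 averaged 1 TPM or more across the 12 biological samples and are described in full, and 13 lay below that level. TPM is a transcript level corrected for transcript length and scaled so that every sample has a common total, so levels can be set side by side between genes. The gene name table holds 44 such symbols, and the 16 with no row were not analysed here.

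RNA was sequenced from ARPE-19, an established human line derived from the retinal pigment epithelium (RPE), the cell layer under the retina. All cells carried siRNA, and the 4 groups were scramble siRNA, Pink1 siRNA, Nrf2 siRNA and the Nrf2-Pink1 combination (double siRNA below), each with 3 biological samples measured as 2 technical replicates. PINK1 is a kinase that marks damaged mitochondria, and NFE2L2 encodes NRF2, a transcription factor of the antioxidant response. Some labels call the groups knockout or KD, the protocols also describe wounding of the cell layer, and it is not stated if the sequenced cells had been wounded or if the biological samples were separate cultures, so the p-values measure only the spread between these samples.

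Collagen chains are modified and folded into triple helices in the endoplasmic reticulum, exported, trimmed and cross-linked outside the cell. Fibril-forming types give tensile strength, network types such as type IV build basement membranes, and fibril-associated types sit on fibril surfaces. The RPE rests on Bruch's membrane, a layered sheet with basement membranes on its faces and fibrillar collagen between them, to which the RPE contributes. In an epithelial-to-mesenchymal transition of RPE cells, collagen genes are among those commonly followed.

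The siRNA targets fell in their own groups. PINK1 fell from 55.8 ± 1.93 TPM (mean ± SD, n = 3) in scramble to 14.6 ± 3.22 with Pink1 siRNA and 18.7 ± 2.93 with the double siRNA, with limma adjusted p = 0.00056 and 0.00301. NFE2L2 fell from 80.7 ± 7.69 TPM to 20.0 ± 7.72 with Nrf2 siRNA and 28.9 ± 6.16 with the double siRNA (limma adjusted p = 0.00523 and 0.0212). Of the RPE markers, RPE65 stayed at or below 0.36 TPM in every sample and TTR had no row, while MITF and OTX2 were at 60.9 ± 3.28 and 57.5 ± 3.44 TPM in scramble. The epithelial markers CDH1 and EPCAM did not exceed 0.795 and 0.305 TPM, whereas KRT8 was at 938 ± 72.02 and VIM at 4297 ± 370.2 TPM. A single identifier without a symbol, ENSG00000226958, held 15.5% of all TPM in double-siRNA sample 3, 41.4% in double-siRNA sample 1 and 24.9% to 38.6% in the other 10. Removing it and rescaling was among the alternatives tried.

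Few chain genes passed the test across all genes, and those that did were COL6A1, COL4A5, COL4A4 and COL9A2. Each of 13810 genes was tested on log2(TPM + 1) with limma, and a gene was called when its p, adjusted by Benjamini-Hochberg over all of them, was under 0.05. With Pink1 siRNA, 1 of 15 chain genes was called, COL6A1, which rose; 0.471% of all genes were called. With Nrf2 siRNA, limma called 0 of 15, beside 0.333% of all genes. At an unadjusted p under 0.05 there were 5 of 15, beside 1687 of all 13810 genes. With the double siRNA, 2 of 15 were called, COL6A1 higher and COL4A5 lower, beside 0.753% of all genes. Between Pink1 siRNA and Nrf2 siRNA, 2 of 15 were called, COL9A2 higher and COL4A4 lower with Pink1 siRNA, beside 0.992% of all genes. The test of any difference among the 4 groups called 2 of 15, COL6A1 and COL4A5, with adjusted p = 0.0194 and 0.0449, beside 1.13% of all genes. Unadjusted limma p was under 0.05 for 5 of 15 with Pink1 siRNA and 6 with the double siRNA. It was so for 7 between Pink1 and Nrf2 siRNA and for 10 in the test of any difference. Over all 13810 genes these counts were 1687, 1966, 1550 and 1906.

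The other comparisons called no chain gene. Limma called 0 of 15 between the double siRNA and Pink1 siRNA, beside 0.0434% of all genes. At an unadjusted p under 0.05 there were 5 of 15, beside 801 of all 13810 genes. Between the double siRNA and Nrf2 siRNA limma called 0 of 15, beside 0.0145% of all genes. Here 2 of 15 had an unadjusted p under 0.05, beside 960 of all 13810 genes. The interaction (double minus Pink1 minus Nrf2 plus scramble on the log2 scale) called 0 of 15, beside 0% of all genes. For it, 3 of 15 had an unadjusted p under 0.05, beside 753 of all 13810 genes. The 3 comparisons with scramble share its 3 samples, so they are not independent of each other.

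The median log2 difference over the 15 chain genes was 0.29 with Pink1 siRNA, 0.20 with Nrf2 siRNA and 0.29 with the double siRNA, beside medians over all tested genes of 0.02, 0.02 and 0.01. Chain genes above scramble numbered 11, 11 and 12 of 15 in these comparisons. The share of all tested genes above scramble was not counted. Groups with no overlap between siRNA and scramble samples occurred in 6 of 15 chain genes with Pink1 siRNA, where 25% of all genes did so, in 5 of 15 with Nrf2 siRNA (22.9% of all genes) and in 7 of 15 with the double siRNA (18% of all genes). Markers of the mesenchymal list, dominated by VIM and FN1, summed to 4641 to 5338 TPM in scramble, 5151 to 6394 with Pink1 siRNA, 5913 to 6456 with Nrf2 siRNA and 5584 to 9644 with the double siRNA. The RPE list summed to 138 to 143 TPM in scramble, 195 to 255 with Pink1 siRNA, 158 to 185 with Nrf2 siRNA and 147 to 263 with the double siRNA, above scramble in all 9 siRNA samples. The simple epithelium list summed to 1592 to 1833 TPM in scramble, 1362 to 1945 with Pink1 siRNA, 1193 to 1463 with Nrf2 siRNA and 1573 to 1805 with the double siRNA, so the Nrf2 samples lay below scramble. CD68, a macrophage and lysosome marker, was at 66.6 ± 33.5 TPM with Nrf2 siRNA and 30.3 ± 9.80 in scramble, while the blood cell marker PTPRC did not exceed 0.445 TPM. The part of these genes in the chain gene differences was not tested, and in bulk RNA a change in the number of cells of a kind and a change in RNA per cell cannot be told apart.

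**Figure D1:**
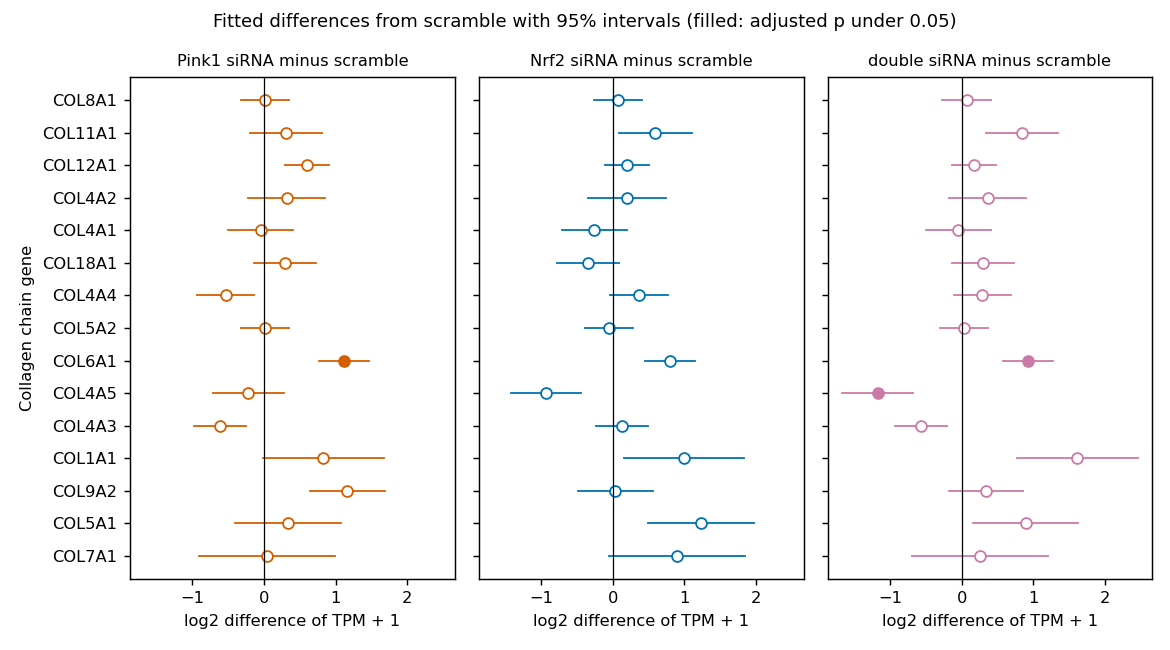
Fitted log2 differences of TPM + 1 between each siRNA group and scramble (x axis) for the 15 described collagen chain genes (y axis, ordered by mean TPM), with 95% intervals from limma and filled points where the adjusted p was under 0.05. Filled points are COL6A1 with Pink1 siRNA (1.11), and COL6A1 (0.93) and COL4A5 (-1.18) with the double siRNA.

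The chain messages spanned more than 2 orders of magnitude. COL8A1 had the highest mean over the 12 samples, 351.6 TPM, which is rank 251 of the 13810 tested genes. COL11A1 followed at 246.0, COL12A1 at 145, COL4A2 at 138, COL4A1 at 124 and COL18A1 at 61.7 TPM. COL4A4 (44.4), COL5A2 (34.3), COL6A1 (15.7), COL4A5 (14.99) and COL4A3 (6.62 TPM) were lower, and COL1A1 (3.94), COL9A2 (3.41), COL5A1 (3.05) and COL7A1 (1.52 TPM) were the lowest described. Technical replicates differed by an SD of 0.02 to 0.16 on the log2 scale for the 10 genes from COL8A1 down to COL4A5 and by 0.21 to 0.49 for the 5 genes below, so the lowest chains carry the largest measurement error.

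**Figure D2:**
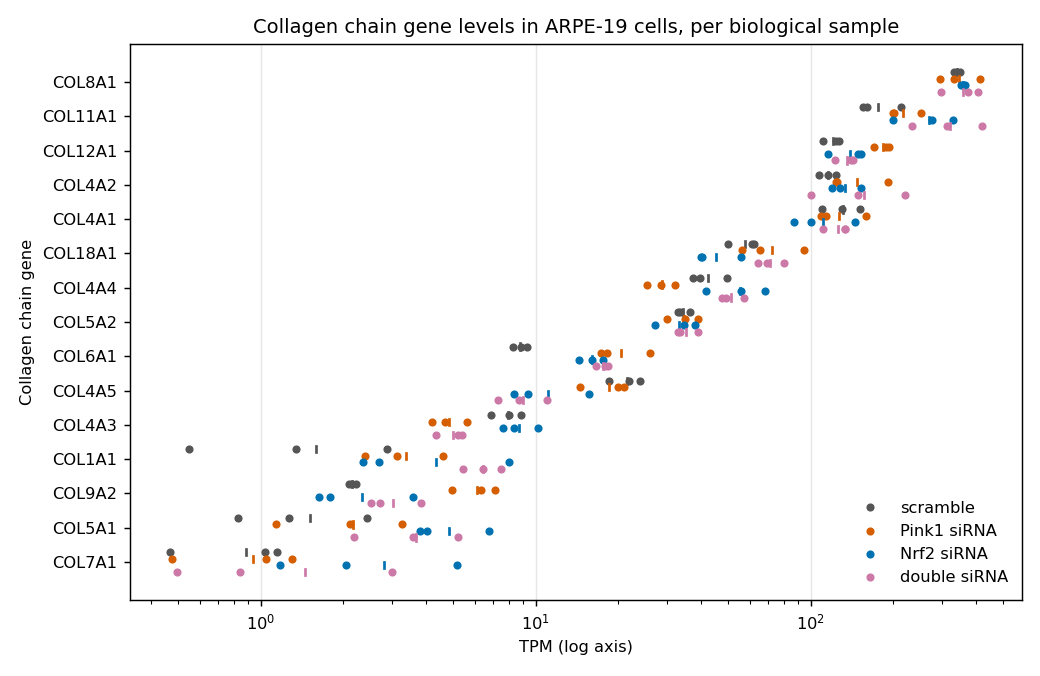
TPM on a log axis (x) for the 15 described collagen chain genes (y), with a point for each biological sample and a short bar at each group mean, coloured by siRNA group. COL8A1 lies between 296 and 412 TPM in all 12 samples, and COL6A1 is the gene whose 3 scramble samples (8.28 to 9.30 TPM) stand below all 9 siRNA samples (14.4 to 26.2 TPM).

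All chain genes with a row together made up 0.102% to 0.144% of the TPM of a sample. Their summed level was 1063 ± 61.8 TPM in scramble, 1218 ± 197 with Pink1 siRNA, 1199 ± 158 with Nrf2 siRNA and 1306 ± 43.5 with the double siRNA (SD, n = 3). The 3 double-siRNA sums (1297, 1354 and 1268 TPM) all exceeded the highest scramble sum (1134), while the other siRNA groups overlapped scramble. This order depends on the share held by ENSG00000226958, since a smaller share raises the TPM of all other genes. It held 15.5% of TPM in double-siRNA sample 3 and 32.4% to 36.4% in scramble. The sums were not recomputed without it, so the separation may not hold there. COL8A1, COL11A1, COL12A1 and COL4A2, the 4 chains with the highest means over all samples, held 69.5% to 76.5% of the summed level of a sample.

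**Figure D3:**
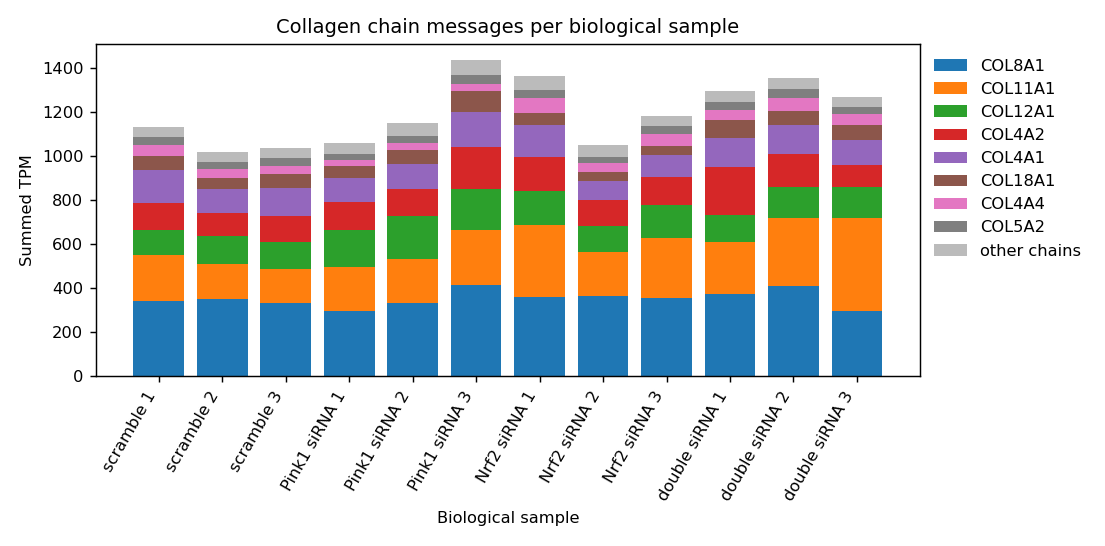
Summed TPM of the collagen chain genes (y axis) in each of the 12 biological samples (x axis), stacked by gene, with the chains below COL5A2 in abundance pooled as other chains. COL8A1 is the largest segment except in double-siRNA sample 3, where COL11A1 (419.7 TPM) exceeds COL8A1 (298 TPM).

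COL8A1 encodes a short chain that forms hexagonal networks in Descemet's membrane, vessel walls and Bruch's membrane. In the order of samples 1, 2 and 3, used throughout, its level was 339.9, 349 and 333 TPM in scramble and 296, 333 and 412 TPM with Pink1 siRNA. It was 359, 366 and 353 TPM with Nrf2 siRNA and 374, 408 and 298 TPM with the double siRNA. The Nrf2 samples lay just above scramble, and the other siRNA groups straddled it. The log2 difference with Nrf2 siRNA was 0.08 (95% interval -0.26 to 0.41, limma adjusted p = 0.895), and those with Pink1 siRNA and the double siRNA were 0.01 (-0.32 to 0.35) and 0.07 (-0.27 to 0.40). COL8A2, its usual partner chain, had a mean of 0.815 TPM and belongs to the low genes.

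The type IV chains form the network at the core of every basement membrane, and their genes lie as neighbours pointing away from each other. COL4A1 and COL4A2 encode the ubiquitous trimer, COL4A3, COL4A4 and COL4A5 encode the trimer of the kidney filter, cochlea and eye whose loss causes Alport syndrome, and COL4A6 joins COL4A5 in a further trimer. In RefSeq annotation (GRCh38.p14), 126 bases lie between COL4A1 and COL4A2 on chromosome 13, 135 bases between COL4A4 and COL4A3 on chromosome 2 and 379 bases between COL4A6 and COL4A5 on chromosome X. The stretches between the annotated gene ends of the COL4A1-COL4A2 and COL4A4-COL4A3 pairs are shown because their members are compared, with the upstream 250 bases of COL4A5 and COL9A2, which were called and have an entry in the promoter table. Capitals mark exact matches, on either strand, to the motifs searched. These were the TATA box (TATAAA), the CCAAT box, the GC-box core (GGGCGG), the AP-1 site (TGACTCA), the core of the antioxidant response element (TGACNNNGC), the SMAD-binding core (CAGAC) and the hypoxia response core in the form ACGTG or in the form GCGTG.
COL4A1-COL4A2, chr13:110307158-110307283, plus strand: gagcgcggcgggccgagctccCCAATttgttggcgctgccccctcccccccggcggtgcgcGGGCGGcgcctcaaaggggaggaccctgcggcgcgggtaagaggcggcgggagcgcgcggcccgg
COL4A4-COL4A3, chr2:227164489-227164623, plus strand: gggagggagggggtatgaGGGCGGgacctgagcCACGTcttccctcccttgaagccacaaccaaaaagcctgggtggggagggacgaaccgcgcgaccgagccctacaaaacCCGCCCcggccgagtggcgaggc
COL4A5, chrX:108439588-108439837, plus strand: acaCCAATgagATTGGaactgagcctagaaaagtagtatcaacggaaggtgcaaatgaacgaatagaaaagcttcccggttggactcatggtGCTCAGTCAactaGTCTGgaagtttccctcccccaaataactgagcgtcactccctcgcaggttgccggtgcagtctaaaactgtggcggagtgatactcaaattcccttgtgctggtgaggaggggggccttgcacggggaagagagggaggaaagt
COL9A2, chr1:40317287-40317536, minus strand: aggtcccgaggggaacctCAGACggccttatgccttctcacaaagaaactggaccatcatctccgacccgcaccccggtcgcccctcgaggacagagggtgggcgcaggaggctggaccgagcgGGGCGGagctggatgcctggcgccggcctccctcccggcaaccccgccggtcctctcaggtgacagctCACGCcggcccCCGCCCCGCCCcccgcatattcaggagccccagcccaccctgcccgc

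These start regions differ in make-up. The COL4A1-COL4A2 and COL4A4-COL4A3 stretches are 80.2% and 68.1% G or C, whereas the COL4A5 stretch is 51.2% G or C and the COL9A2 stretch 71.6%. Of the 15 described chain genes, 11 had a RefSeq window of 300 bases (250 before and 50 after the start). The window listed for COL4A4 belongs to a start further inside the gene and does not reach the COL4A4-COL4A3 stretch. The GC-box core GGGCGG was in 9 of the 11 windows and in 45% of all 35116 windows of the table, and TATAAA was in 2 of the 11 (COL18A1 and COL7A1) and in 11.5% of all. TGACNNNGC, the core of the antioxidant response element to which NRF2 binds, was in the COL4A5 window among the 11 and in 13.3% of all windows. The AP-1 motif TGACTCA was in 0 of the 11 and in 4.95% of all. A match is a match of letters and was not tested as a binding site.

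COL4A1 and COL4A2 were the most abundant type IV messages and were not called in any comparison. COL4A1 was at 152, 110.0 and 131 TPM in scramble, 109, 114 and 159 with Pink1 siRNA, 146, 86.7 and 100.2 with Nrf2 siRNA and 133, 133 and 111 with the double siRNA, and every siRNA group overlapped scramble. COL4A2 was at 124, 107 and 116 TPM in scramble, 125, 124 and 191 with Pink1 siRNA, 153, 119.9 and 127 with Nrf2 siRNA and 221, 148 and 100.3 with the double siRNA. Its Pink1 samples lay above scramble by less than 1 TPM at the closest, and the double-siRNA samples spread on both sides. The largest log2 difference from scramble for the pair was 0.36 for COL4A2 with the double siRNA (95% interval -0.18 to 0.90, limma adjusted p = 0.554). For COL4A1 the log2 differences were -0.05 (-0.50 to 0.41), -0.26 (-0.71 to 0.20) and -0.05 (-0.50 to 0.41) with Pink1, Nrf2 and double siRNA.

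The ratio of COL4A1 to COL4A2 TPM was 1.22, 1.03 and 1.13 in scramble. It was 0.869, 0.915 and 0.831 with Pink1 siRNA, 0.951, 0.723 and 0.787 with Nrf2 siRNA and 0.602, 0.898 and 1.11 with the double siRNA. COL4A1 thus exceeded COL4A2 in the 3 scramble samples and in 1 of the 9 siRNA samples, double-siRNA sample 3. An exact permutation test of the spread of the log2 ratio between the 4 groups, over all 369600 divisions of the samples, gave p = 0.192 (0.192 adjusted over the 2 ratios tested). Without double-siRNA sample 1 or without double-siRNA sample 3 the adjusted p of the exact permutation test was 0.0397 or 0.0427, so those samples decide this call.

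COL4A5 was the chain gene that fell most. Its level was 24.0, 18.5 and 21.9 TPM in scramble and 14.5, 19.9 and 20.9 TPM with Pink1 siRNA. It was 15.6, 8.34 and 9.36 TPM with Nrf2 siRNA and 7.29, 11.02 and 8.72 TPM with the double siRNA. The scramble and Pink1 samples overlapped, all Nrf2 and double-siRNA samples lay below scramble, and Nrf2 sample 1 alone of these 6 reached into the Pink1 range. With the double siRNA it fell by 1.18 on the log2 scale (SE 0.23, 2.26-fold, limma adjusted p = 0.0320), from 21.5 ± 2.76 to 9.01 ± 1.88 TPM (SD, n = 3). This call held in 2 of 12 fits that leave out a sample each (without Nrf2-siRNA sample 1 or 2), and the adjusted p in the other 10 was 0.0526 to 0.158. With Nrf2 siRNA the log2 difference was -0.93 (SE 0.23, adjusted p = 0.104), which became 0.0473, 0.0453 and 0.0485 under median-of-ratios rescaling, quantile normalization and removal of ENSG00000226958. With Pink1 siRNA it was -0.22 (95% interval -0.71 to 0.28, adjusted p = 0.740), and the log2 difference between the double siRNA and Pink1 siRNA was -0.96 (-1.45 to -0.46, adjusted p = 0.288).

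COL4A4 was lowest with Pink1 siRNA. Its level was 49.7, 39.6 and 37.3 TPM in scramble and 25.5, 28.6 and 32.1 TPM with Pink1 siRNA. It was 68.4, 41.8 and 55.7 TPM with Nrf2 siRNA and 47.7, 57.4 and 49.3 TPM with the double siRNA. The 3 Pink1 samples lay below all 9 others, and the scramble, Nrf2 and double-siRNA samples overlapped. The log2 difference between Pink1 siRNA and Nrf2 siRNA was -0.90 (SE 0.19, 1.86-fold, limma adjusted p = 0.0394). Against scramble the Pink1 difference was -0.53 (95% interval -0.94 to -0.13, adjusted p = 0.254), and the double siRNA stood above Pink1 siRNA by 0.82 (0.42 to 1.22, adjusted p = 0.237). The call between Pink1 and Nrf2 siRNA held in 3 of 12 fits that leave out a sample each (without Nrf2-siRNA sample 2, double-siRNA sample 1 or double-siRNA sample 3), and the adjusted p in the other 9 was 0.0537 to 0.173.

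COL4A3, the head-to-head neighbour of COL4A4, was low both with Pink1 siRNA and with the double siRNA. Its level was 7.99, 8.87 and 6.88 TPM in scramble and 10.2, 7.64 and 8.38 TPM with Nrf2 siRNA. It was 5.62, 4.21 and 4.69 TPM with Pink1 siRNA and 5.22, 5.42 and 4.36 TPM with the double siRNA, so these 6 samples all lay below the 6 scramble and Nrf2 samples. The log2 differences from scramble were -0.61 (95% interval -0.98 to -0.25) and -0.57 (-0.94 to -0.20) with limma adjusted p = 0.155 and 0.145, and no comparison called COL4A3. Its technical SD was 0.30 on the log2 scale.

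Ratios between the chains of the COL4A3, COL4A4 and COL4A5 trimer were picked with their values in view, so they carry no test. COL4A4 stood to COL4A5 as 2.07, 2.14 and 1.70 in scramble and as 1.76, 1.44 and 1.53 with Pink1 siRNA. The ratio was 4.38, 5.01 and 5.95 with Nrf2 siRNA and 6.54, 5.22 and 5.66 with the double siRNA. The 6 samples that received Nrf2 siRNA therefore had ratios of at least 4.38 and the other 6 of at most 2.14. COL4A3 stood to COL4A4 as 0.190 ± 0.032 in scramble, 0.171 ± 0.042 with Pink1 siRNA, 0.161 ± 0.019 with Nrf2 siRNA and 0.097 ± 0.011 with the double siRNA (SD, n = 3), the double-siRNA samples being the lowest 3 of the 12. Summed over the type IV chains, the level was 318 ± 36.8 TPM in scramble, 326 ± 71.4 with Pink1 siRNA, 319 ± 66.1 with Nrf2 siRNA and 348 ± 70.2 with the double siRNA, with overlap throughout.

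**Figure D4:**
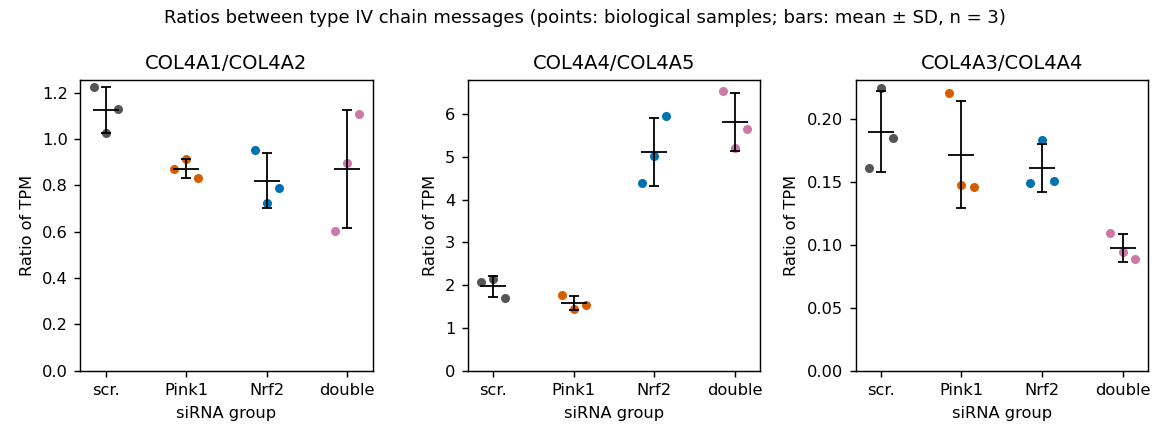
Ratio of TPM (y axis) between chain genes of type IV collagen by siRNA group (x axis), with a point for each of 3 biological samples and bars at the mean ± SD. The COL4A4/COL4A5 ratio is 4.38 or more in the 6 samples with Nrf2 siRNA, alone or in the double siRNA, and 2.14 or less in the other 6.

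COL6A1 is a chain of the beaded filaments that link cells to the surrounding matrix, and it was the chain gene called in most comparisons with scramble. Its level was 8.28, 8.83 and 9.30 TPM in scramble and 17.3, 18.1 and 26.2 TPM with Pink1 siRNA. It was 14.4, 17.6 and 16.1 TPM with Nrf2 siRNA and 18.3, 18.0 and 16.7 TPM with the double siRNA. All 9 siRNA samples lay above all 3 scramble samples, and the siRNA groups overlapped each other. It rose by 1.11 on the log2 scale with Pink1 siRNA (SE 0.16, 2.16-fold, limma adjusted p = 0.0087) and by 0.93 with the double siRNA (SE 0.16, 1.90-fold, adjusted p = 0.0223). With Nrf2 siRNA the difference was 0.79 (SE 0.16, adjusted p = 0.0651), which became 0.0426 with a minimum of 5 TPM, 0.0473 with median-of-ratios rescaling, 0.0442 with quantile normalization and 0.0316 without Pink1-siRNA sample 3.

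The COL6A1 call with Pink1 siRNA was lost when a scramble sample was left out, with adjusted p = 0.0622, 0.0600 and 0.0509 without samples 1, 2 and 3, and held in the other 9 such fits. The call with the double siRNA was lost without scramble sample 1, 2 or 3 (0.102, 0.118 and 0.0954), without Nrf2-siRNA sample 3 (0.0515) and without double-siRNA sample 2 (0.0635). Both calls were also lost with the compared groups alone and with technical replicate 1 alone. The double-siRNA call was lost with technical replicate 2 alone as well. The siRNA groups differed from each other by -0.18 (95% interval -0.54 to 0.17) for the double against Pink1 siRNA and 0.13 (-0.22 to 0.49) for the double against Nrf2 siRNA. The interaction for COL6A1 was -0.98 (95% interval -1.47 to -0.48, adjusted p = 0.499), so the double siRNA stood below the sum of the single differences without passing the test. The partners of COL6A1 in the type VI trimer are COL6A2, listed at 0 in 10 of 12 samples, and COL6A3, which was not analysed here.

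**Figure D5:**
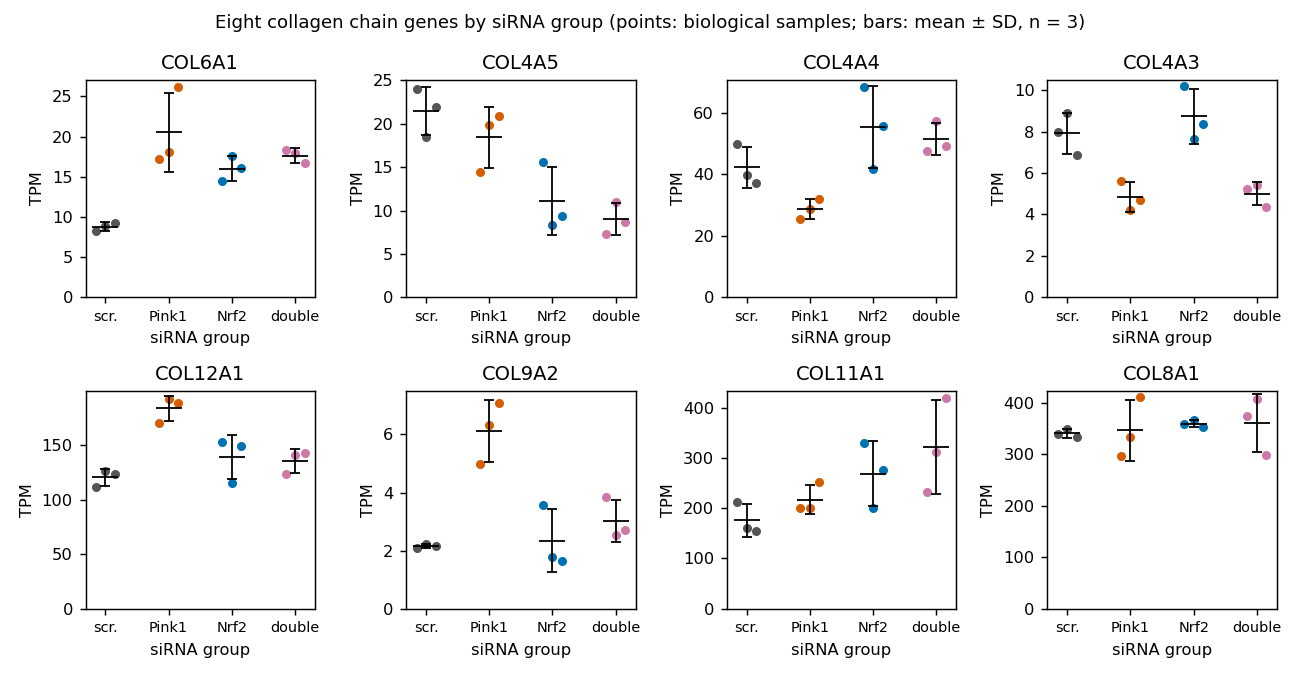
TPM (y axis) of 8 collagen chain genes by siRNA group (x axis; scr. is scramble), with a point for each of 3 biological samples and bars at the mean ± SD. COL6A1 is higher in all 9 siRNA samples than in scramble, COL4A5 is lower in the 6 samples with Nrf2 siRNA, and COL9A2 is highest with Pink1 siRNA (6.13 ± 1.07 TPM).

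Both described fibril-associated chains, COL12A1 and COL9A2, had their highest levels with Pink1 siRNA, and neither was called against scramble. COL12A1 encodes the chain of type XII collagen, which bridges fibrils. It was at 111, 127 and 123 TPM in scramble and 170.3, 192 and 188 TPM with Pink1 siRNA, and at 152, 115 and 149 TPM with Nrf2 siRNA and 123, 141 and 143 TPM with the double siRNA. The 3 Pink1 samples exceeded all 9 others, and the Nrf2 and double-siRNA samples overlapped scramble. The log2 difference between Pink1 siRNA and scramble was 0.60 (95% interval 0.30 to 0.91, 1.52-fold, limma adjusted p = 0.0968). It was called under median-of-ratios rescaling (0.0260), quantile normalization (0.0252), removal of ENSG00000226958 (0.0455) and without double-siRNA sample 1 (0.0482). The interaction was -0.63 (-1.07 to -0.20, adjusted p = 0.730).

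COL9A2, a chain of type IX collagen that coats fibrils in cartilage and the vitreous, was also highest with Pink1 siRNA, at a lower level. Its values were 2.10, 2.22 and 2.15 TPM in scramble and 4.98, 6.31 and 7.09 TPM with Pink1 siRNA. They were 3.58, 1.79 and 1.63 TPM with Nrf2 siRNA and 3.85, 2.53 and 2.71 TPM with the double siRNA. The Pink1 samples exceeded all others, the double-siRNA samples lay between Pink1 and scramble, and the Nrf2 samples straddled scramble. It was higher with Pink1 siRNA than with Nrf2 siRNA by 1.13 on the log2 scale (SE 0.24, 2.19-fold, limma adjusted p = 0.0461), and the difference from scramble was 1.17 (SE 0.24, adjusted p = 0.0563). The call against Nrf2 siRNA held in 3 of 12 fits that leave out a sample each (without Nrf2-siRNA sample 1, double-siRNA sample 1 or double-siRNA sample 3), with adjusted p of 0.0704 to 0.197 in the other 9. Its partner chains COL9A1 and COL9A3 were not analysed here.

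Among the fibril-forming chains, COL11A1 was by far the most abundant. It encodes a chain of type XI collagen, a minor fibril component known mainly from cartilage and the eye that helps to set fibril diameter. Its level was 213, 160.0 and 155 TPM in scramble and 199.8, 201 and 252 TPM with Pink1 siRNA. It was 329.7, 199.9 and 277 TPM with Nrf2 siRNA and 233, 313 and 419.7 TPM with the double siRNA. The double-siRNA samples all lay above scramble, while the single siRNA groups overlapped it through scramble sample 1. The log2 difference was 0.84 with the double siRNA (95% interval 0.34 to 1.35, 1.79-fold, limma adjusted p = 0.125), 0.60 with Nrf2 siRNA (0.09 to 1.10, adjusted p = 0.310) and 0.31 with Pink1 siRNA (-0.19 to 0.82, adjusted p = 0.626). The double-siRNA difference was called under median-of-ratios rescaling (0.0329), quantile normalization (0.0386), removal of ENSG00000226958 (0.0321) and without double-siRNA sample 1 (0.0488). Double-siRNA sample 3, with the highest COL11A1 level, is also the sample in which ENSG00000226958 held the smallest share of TPM.

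COL5A2, a chain of the fibril-nucleating type V collagen, was the steadiest fibril-forming message. Its group means were 34.2 ± 1.79 TPM in scramble, 34.6 ± 4.43 with Pink1 siRNA, 33.3 ± 5.49 with Nrf2 siRNA and 35.2 ± 3.31 with the double siRNA (SD, n = 3), and its samples ranged from 27.2 to 39.0 TPM with overlap of all groups. The 95% intervals of the log2 differences from scramble lay within -0.39 to 0.37. COL11A1, which can pair with COL5A2 in mixed trimers, stood to it as 5.11 ± 0.66 in scramble, 6.30 ± 0.49 with Pink1 siRNA, 8.01 ± 0.67 with Nrf2 siRNA and 9.23 ± 3.06 with the double siRNA, a ratio chosen after its values were seen and given with no test.

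COL5A1, the partner of COL5A2, was low and had its highest mean with Nrf2 siRNA, but no comparison called it. It was at 1.27, 0.825 and 2.44 TPM in scramble, 1.14, 3.26 and 2.11 with Pink1 siRNA, 6.76, 4.02 and 3.79 with Nrf2 siRNA and 5.23, 3.59 and 2.19 with the double siRNA. The Nrf2 samples lay above scramble and above the Pink1 samples, and the double-siRNA samples overlapped both. The log2 difference between Nrf2 siRNA and scramble was 1.24 (95% interval 0.50 to 1.98, limma adjusted p = 0.152). The technical SD of COL5A1 was 0.49 on the log2 scale, and its single technical replicates ranged from 0.6 to 8.9 TPM. The COL5A1 to COL5A2 ratio was 0.0443 ± 0.0253 in scramble, 0.0619 ± 0.0284 with Pink1 siRNA, 0.145 ± 0.0345 with Nrf2 siRNA and 0.105 ± 0.0462 with the double siRNA (SD, n = 3), with an exact permutation p = 0.0305 over the 4 groups and 0.0609 adjusted over the 2 ratios. Left-out samples moved that adjusted p of the exact permutation test to 0.0353 (scramble sample 3), 0.0397 (double-siRNA sample 1) and 0.0427 (double-siRNA sample 3). In the last 2 of these fits the COL4A1 to COL4A2 ratio had the same adjusted p. The adjustment over 2 ratios then gives both the larger unadjusted p. Those 2 values therefore do not show a change in the COL5A1 to COL5A2 ratio itself.

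COL1A1, the main chain of type I collagen and a common marker of fibrosis, was at 1.35, 0.55 and 2.87 TPM in scramble and 2.40, 4.60 and 3.14 TPM with Pink1 siRNA. It was at 8.01, 2.69 and 2.36 TPM with Nrf2 siRNA and 7.48, 6.44 and 5.45 TPM with the double siRNA. The double-siRNA samples exceeded all scramble and Pink1 samples, and a single Nrf2 sample, sample 1, exceeded them in turn. The log2 difference between the double siRNA and scramble was 1.62 (95% interval 0.78 to 2.46, 3.07-fold, limma adjusted p = 0.0819), the largest of any described chain gene in a comparison with scramble. It was the chain gene called in the double siRNA when technical replicate 2 alone was used. At these levels the technical SD of COL1A1 was 0.43 on the log2 scale, and its partner COL1A2 was not analysed here.

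The multiplexin COL18A1, whose end fragment endostatin is an inhibitor of vessel growth, was at 61.1, 50.01 and 62.2 TPM in scramble and 56.3, 65.5 and 94.7 TPM with Pink1 siRNA. It was at 55.9, 39.8 and 40.5 TPM with Nrf2 siRNA and 80.1, 64.6 and 69.6 TPM with the double siRNA. The Pink1 and double-siRNA samples all lay above the Nrf2 samples, and the double-siRNA samples also lay above scramble. The double-siRNA and scramble samples were 64.6 and 62.2 TPM at the closest. That order was not followed through the removal of ENSG00000226958, whose share of TPM differed between these samples. The differences on the log2 scale were 0.64 for Pink1 against Nrf2 siRNA (95% interval 0.21 to 1.07, limma adjusted p = 0.191) and 0.65 for the double against Nrf2 siRNA (0.22 to 1.09, adjusted p = 0.472). COL7A1, the anchoring fibril chain of stratified epithelia, reached 5.19 TPM in Nrf2 sample 2 and 3.01 TPM in double-siRNA sample 3 and lay between 0.47 and 2.05 TPM in the other 10. Its log2 difference with Nrf2 siRNA was 0.89 (-0.06 to 1.84, limma adjusted p = 0.455). The technical SD of COL7A1 was 0.45 on the log2 scale, and its single technical replicates ranged from 0.03 to 8.31 TPM.

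The 13 low chain genes had means of 0.053 to 0.815 TPM. COL8A2, COL6A6, COL4A6, COL16A1, COL27A1 and COL11A2 had means of 0.149 TPM or more, and COL3A1, COL13A1, COL26A1, COL10A1, COL15A1, COL6A2 and COL20A1 means below 0.1 TPM. COL3A1, a major fibril chain of fibroblasts, did not exceed 0.365 TPM and was listed at 0 in 3 samples. COL6A6 was at 1.30, 0.80 and 1.17 TPM with Pink1 siRNA and between 0.14 and 0.515 TPM in the other 9 samples. In the fit without a minimum level its log2 difference between Pink1 siRNA and scramble was 0.62 (SE 0.17, limma adjusted p = 0.256), the depth behind such values is unknown, and no low chain gene was called there against scramble.

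Genes that process, bind or cleave collagen were taken from 8 lists of 82 genes, of which 61 reached the level for testing. With Pink1 siRNA, 2 of the 61 were called and both rose; with Nrf2 siRNA 4 of 61 and with the double siRNA 8 of 61 were called, and all rose, beside 0.471%, 0.333% and 0.753% of all genes called in either direction. Their median log2 differences were 0.26, 0.28 and 0.37. The modification and folding list, the largest with 20 tested genes, held 2 of these calls with Pink1 siRNA, 2 with Nrf2 siRNA and 5 with the double siRNA. Its median log2 differences were 0.34, 0.35 and 0.49. Those of the basement membrane partners, none of them called, were close to these at 0.37, 0.38 and 0.48. P3H1, which hydroxylates prolines together with CRTAP, went from 27.8 ± 0.72 TPM in scramble to 51.2 ± 5.95 with Pink1 siRNA, 50.9 ± 7.12 with Nrf2 siRNA and 74.0 ± 7.20 with the double siRNA (SD, n = 3; limma adjusted p = 0.0256, 0.0312 and 0.00265). CRTAP rose from 259 ± 16.0 to 426 ± 39.4 TPM with Pink1 siRNA (adjusted p = 0.0318).

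PLOD1, a lysyl hydroxylase, rose from 74.6 ± 5.81 TPM to 142 ± 17.1 with Nrf2 siRNA and 154 ± 13.5 with the double siRNA (limma adjusted p = 0.0236 and 0.00856). With the double siRNA, P4HA2, a prolyl hydroxylase subunit, rose from 51.5 ± 4.11 to 105 ± 26.5 TPM (adjusted p = 0.0266) and PPIB, a prolyl isomerase, from 311 ± 27.8 to 564 ± 124 TPM (adjusted p = 0.0307). The vesicle coat gene SEC31A, in the export list, rose from 117 ± 5.92 to 231 ± 70.3 TPM with the double siRNA (adjusted p = 0.0490). LOX, which cross-links collagen, rose from 347 ± 44.3 to 639 ± 67.9 TPM with Nrf2 siRNA and 606 ± 82.9 with the double siRNA (adjusted p = 0.0310 and 0.0307). MMP2, a gelatinase that degrades type IV collagen, rose from 38.8 ± 3.15 to 86.0 ± 6.63 TPM with Nrf2 siRNA and 66.2 ± 4.06 with the double siRNA (adjusted p = 0.00211 and 0.0192). Of these 13 changes, the rise of P3H1 with the double siRNA and that of MMP2 with Nrf2 siRNA kept their calls in every fit that left out a sample.

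MMP2 also separated the siRNA groups. It was higher with the double siRNA than with Pink1 siRNA (66.2 ± 4.06 against 32.6 ± 1.79 TPM, limma adjusted p = 0.0201) and lower with Pink1 than with Nrf2 siRNA, with a log2 difference of -1.37 (adjusted p = 0.00038). PCOLCE, an enhancer of propeptide removal named after its values were seen, was higher with Pink1 than with Nrf2 siRNA (6.01 ± 0.44 against 2.64 ± 0.37 TPM, adjusted p = 0.0404). None of 7 tested collagen receptors and none of 12 tested basement membrane partners (laminins, nidogens and proteoglycans of the HSPG2 and AGRN kind) was called by limma in the pairwise comparisons or the interaction. At an unadjusted p under 0.05 against scramble there were 2, 2 and 0 of the 7 receptors with Pink1, Nrf2 and double siRNA. Of the 12 basement membrane partners there were 4, 6 and 7. Over all 13810 genes the counts were 1687, 1687 and 1966. The median log2 difference of the partners was 0.37, 0.38 and 0.48. The 6 fibril-binding proteoglycans of the remaining list did not reach the level for testing.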

How the data were processed

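Per the labels' protocols, stranded mRNA libraries were sequenced in pairs, and the submitters' processing notes name STAR, RSEM, edgeR and the builds GRCh37 and hg19, without roles; the version of each is not given in the sources used here. TPM was deposited by the authors for 24053 Ensembl identifiers, and each column sums to between 999678 and 999945. Depth is unknown, so no counting interval is given.

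Technical pairs were averaged, which left 12 samples. Values were taken as log2(TPM + 1), a scale that understates changes of low genes. The 13810 genes averaging 1 TPM or more were fitted with the 4 groups in limma 3.58.1 (R 4.3.3) with an intensity trend (8 residual and 4.93 prior degrees of freedom), two-sided. The script was tested on simulated data. Intervals use the moderated SE. Log2 ratios of COL4A1 to COL4A2 and of COL5A1 to COL5A2, the pairs of the planned list with both chains at 1 TPM or more, were tested with an exact permutation test (scipy 1.17.1). Exact motif matches were searched in the RefSeq promoter table; proteins were not analysed here.

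The naming rule gave full statistics to chain genes called in any comparison and, for each comparison with scramble, to the 3 with the largest difference among those of at least 5 TPM whose groups did not overlap; list genes were named where called against scramble, at most 4 per list. The chain genes, lists and tests were chosen with earlier results of these data known. Alternatives were pseudocounts of 0.1 and 5, no filter, a minimum of 5 TPM, 2 rescalings, removal of ENSG00000226958, the compared groups alone, the replicate block, each technical replicate alone, no trend and each sample left out; leaving the double siRNA out of the fit and 4 further chain ratios were added after seeing the data.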

Additional observations from a re-analysis of the deposited data

How the results depend on the processing

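The 11 chain gene and 13 list gene differences given by the naming rule kept their direction in every alternative run. So did the falls of the siRNA targets and the 2 tested ratio differences. The direction of the other differences was not followed through the alternatives. The count of chain genes called with Pink1 siRNA against scramble (1) became 2 with a pseudocount of 5 (COL9A2 added) or without ENSG00000226958 (COL12A1 added), 3 with median-of-ratios rescaling or quantile normalization (both added), and 0 with the compared groups alone or technical replicate 1 alone. With Nrf2 siRNA (0) it became 1 with a minimum of 5 TPM (COL6A1) or without ENSG00000226958 (COL4A5) and 2 with either rescaling (both). With the double siRNA (2) it became 3 with either rescaling or without ENSG00000226958 (COL11A1 added) and 1 with no filter or no intensity trend (COL6A1). It became 1 with technical replicate 2 alone, where the call was COL1A1 and COL6A1 and COL4A5 were lost. It became 0 with the compared groups alone or technical replicate 1 alone. Between Pink1 and Nrf2 siRNA (2) it became 1 with a pseudocount of 0.1, a minimum of 5 TPM or no intensity trend, and 0 with no filter, the compared groups alone, either technical replicate alone or a fit that left out the double siRNA. For any difference among the 4 groups (2) it became 3 with a minimum of 5 TPM or without ENSG00000226958 (COL4A4 added), 1 with a pseudocount of 5, no filter, technical replicate 2 alone or no intensity trend, 0 with technical replicate 1 alone, 4 with median-of-ratios rescaling and 5 with quantile normalization. Leaving out each sample in turn gave 0 to 3 calls with Pink1 siRNA, 0 to 1 with Nrf2 siRNA, 0 to 2 with the double siRNA, 0 to 2 between Pink1 and Nrf2 siRNA, 0 to 3 for any difference and 0 in the remaining comparisons; an arm with 2 samples borrows its spread from the other groups. The log2 ratio differences ranged from 0.37 to 0.57 (COL4A1 to COL4A2, scramble minus Nrf2 siRNA) and from 1.11 to 1.56 (COL5A1 to COL5A2, Nrf2 siRNA minus scramble) in these fits. Apart from the technical replicates and the left-out samples, the causes of these shifts were not tested. The 2 rescalings moved the median of all genes by at most 0.041 on the log2 scale (interaction, quantile normalization). Removal of ENSG00000226958 moved that median by -0.088 for the double siRNA against scramble. The unknown depth limits the chains below about 5 TPM.

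Of 18 pairs of samples with the same replicate number, 1 had a correlation of deviations over 0.1 (range -0.08 to 0.11). Of 12 samples, 6 correlated best with a sample of their own number. These deviations come from groups of 3 samples, so they cannot decide if samples with the same number were handled together. With the replicate block, the calls were 1 with Pink1 siRNA and 0 with Nrf2 siRNA against scramble, 1 with the double siRNA (COL6A1), 0 between Pink1 and Nrf2 siRNA and 1 for any difference.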
